A study of Saccharomyces cerevisiae with 18 samples.

Results

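The enzymes that make amino acids in budding yeast, together with the activator Gcn4 and the serine and threonine deaminase Cha1, were followed through 3 RNA-seq experiments on strains with altered small nucleolar RNAs. The genes were chosen by name: 53 enzymes of amino acid synthesis, GCN4 and CHA1, 55 in all. Each was found once in each of the 3 tables, which hold 9437 rows (ice), 9418 rows (glucose) and 9393 rows with a level (U3). The markers HIS3 and LEU2 were left out, since the strains derive from BY4741, in which both genes are altered. All 18 libraries came from BY4741 derivatives in synthetic glucose medium at 30 °C and fall into 6 groups of 3. In the U3 experiment, cells with a truncated U3 snoRNA on a centromeric plasmid were set against cells with wild type U3 on the same plasmid. Both groups lack SNR17B and carry SNR17A behind a GAL promoter that glucose represses. The study's methods name BY4741 as a control for sequencing, whereas the sample titles tell this wild type U3 control apart from the BY4741 controls. By the study's methods, 3 clones with the mutant plasmid were selected without histidine and moved from galactose to glucose medium, still without histidine, to deplete the chromosomal U3. For the strains sequenced, the methods also name a supplement that was either complete or without tryptophan, without saying which strain had which. In the snR4 experiment, a strain without SNR4 was set against its parent BY4741, which carries no further change. Cells were taken either after growth in glucose or after a brief stay in ice-cold buffer ("ice"). The study's methods and results give this buffer, whereas a figure legend names medium with ethanol and glycerol for the same arm. In the buffer, cold came together with removal from the growth medium and its glucose and amino acids. These cannot be told apart here.

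Yeast with intact pathways makes all the amino acids of its proteins, from intermediates of glycolysis, the citric acid cycle and the pentose phosphate pathway. BY4741 itself carries deletion alleles of HIS3, LEU2 and MET15, so its histidine, leucine and methionine pathways are not intact. Most of the genes concerned answer to Gcn4, a bZIP activator whose own mRNA is translated mainly when amino acids are short, because of small open reading frames in its leader. Single pathways carry further controls, such as the arginine repressors, Leu3 for the leucine branch and Lys14 for lysine. CHA1 belongs to the other side of metabolism. Its mitochondrial enzyme deaminates serine and threonine, and its transcription is induced by these amino acids through Cha4.

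Each table gives 1 mean level for a gene, taken by the authors over the 6 libraries of an experiment, mutants and controls together. No value per library or mean ± SD can therefore be given for ice and glucose. The authors' own tests between the 2 genotypes were not used here, and the genotypes are not separated below. Levels in ice and glucose are means of normalised counts. Those of the U3 experiment are geometric means of estimated counts, for which the authors' model also gives the spread between libraries. Levels summed to 13472351 on ice and 14613981 in glucose, and the depth of a library is unknown. Whether replicates came from separate cultures is not given for every group, and the means cannot check that a targeted snoRNA gene was absent. The 3 tables were normalised separately, so every value set across them is a description. Values are relative within a library, so less of one mRNA per cell cannot be told apart from more of all other RNA.

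The Gcn4 core motif was looked up first. The choice by name did not use sequence. Since most genes of these pathways answer to Gcn4, a high share could be foreseen from that choice and is a description, not a test. TGACTC, on either strand, was present between 500 bases before the start codon and 50 bases into the coding region in 38 of the 55 genes (69.1%), against 857 of 6008 nuclear coding genes of the R64 annotation (14.3%). The motif with a further A, TGACTCA, was present in 28 of the 55 (50.9%) against 4.58% of all. In these 38 genes the upstream match nearest to the start codon lay 94 to 492 bases before it, with a median of 179.5. It occurred at 3 places before HIS4, HIS5 and ILV5. It was absent from this window in 17 genes, among them GCN4, CHA1, SER3, HIS2, ILV2, BAT2, LYS20, LYS21 and ARO3. A match is a run of letters and not a measured binding site.

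The sequences below are those of the genes on which the later comparisons turn, 1 match for each. They were read from the R64 genome on the strand of each gene, 5′ to 3′, with the motif or its reverse complement in capitals. They lie at chrX:268473-268502 (ARG3, 314 bases before the start codon), chrXV:218854-218883 (ARG1, 345 bases), chrV:265951-265980 (HIS1, 183 bases), chrIII:68515-68544 (HIS4, 199 bases), chrIX:222627-222656 (SER33, 154 bases) and chrVIII:517349-517378 (BAT1, 171 bases). HIS1, HIS4 and SER33 are on the minus strand.
ARG3: agggtcacgtcgTGACTCatatgctttctt
ARG1: gtgattttttagTGACTCatgtcgcatttg
HIS1: aagcttccaagtGAGTCAcctctaccgttg
HIS4: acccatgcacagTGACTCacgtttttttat
SER33: cacgctggaaacGAGTCAccgttatgaaaa
BAT1: attgccttcttaTGACTCaaaattctattg

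**Figure D1:**
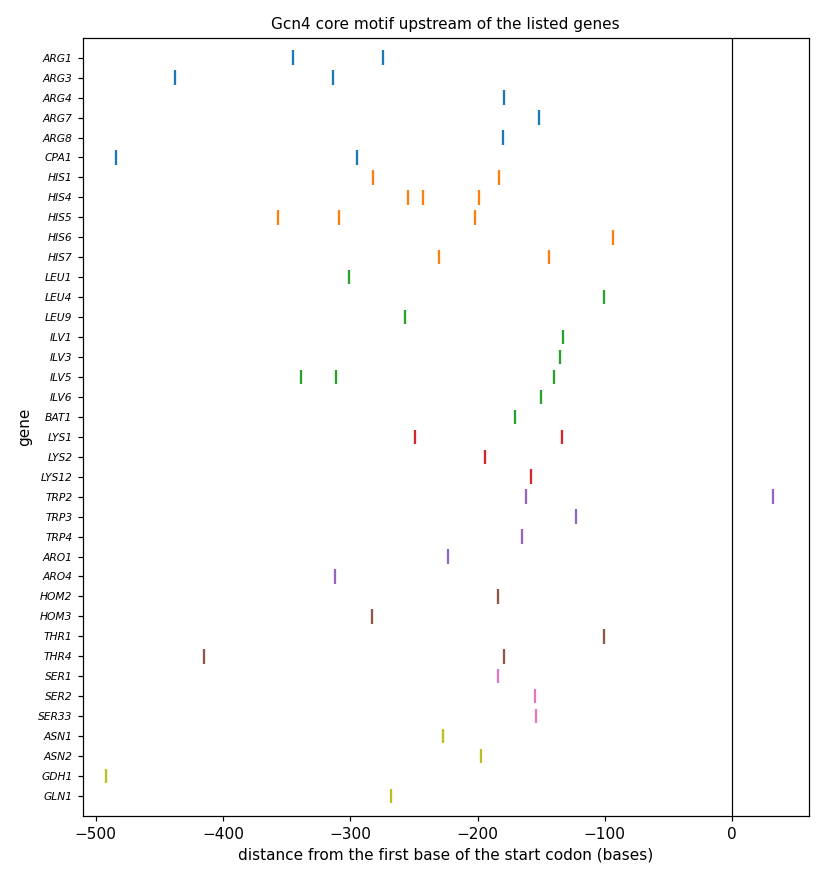
Positions of the Gcn4 core motif (TGACTC, either strand) relative to the first base of the start codon, in bases, for the 38 listed genes that hold it; each tick is 1 match, coloured by pathway. Nearly all ticks lie upstream, and only TRP2 has a match within the coding region.

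Taken per length, the listed genes were abundant. Each level was divided by the coding length in R64 and set on a log2 scale against the median of the 5494 protein-coding genes with a level in the 3 tables. This relative level was above 0, the median gene, for 52 of the 55 genes on ice, 51 in the U3 experiment and 51 in glucose. The median listed gene stood at percentile 84.7 on ice, 71.9 in the U3 experiment and 84.3 in glucose.

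GCN4 mRNA was itself among the most abundant, with 14484 normalised counts on ice, 12745 estimated counts in the U3 experiment and 12800 normalised counts in glucose. Its relative level was 4.53 on ice, 5.01 in the U3 experiment and 4.23 in glucose. CHA1 was at the other end. It had 255 normalised counts on ice, 536 estimated counts in the U3 experiment and 208 normalised counts in glucose. Its relative level was -1.65 on ice, 0.08 in the U3 experiment and -2.07 in glucose. It was the lowest of the 55 per length on ice (percentile 14.2) and in glucose (percentile 9.54), and in the U3 experiment it was close to the median gene.

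**Figure D2:**
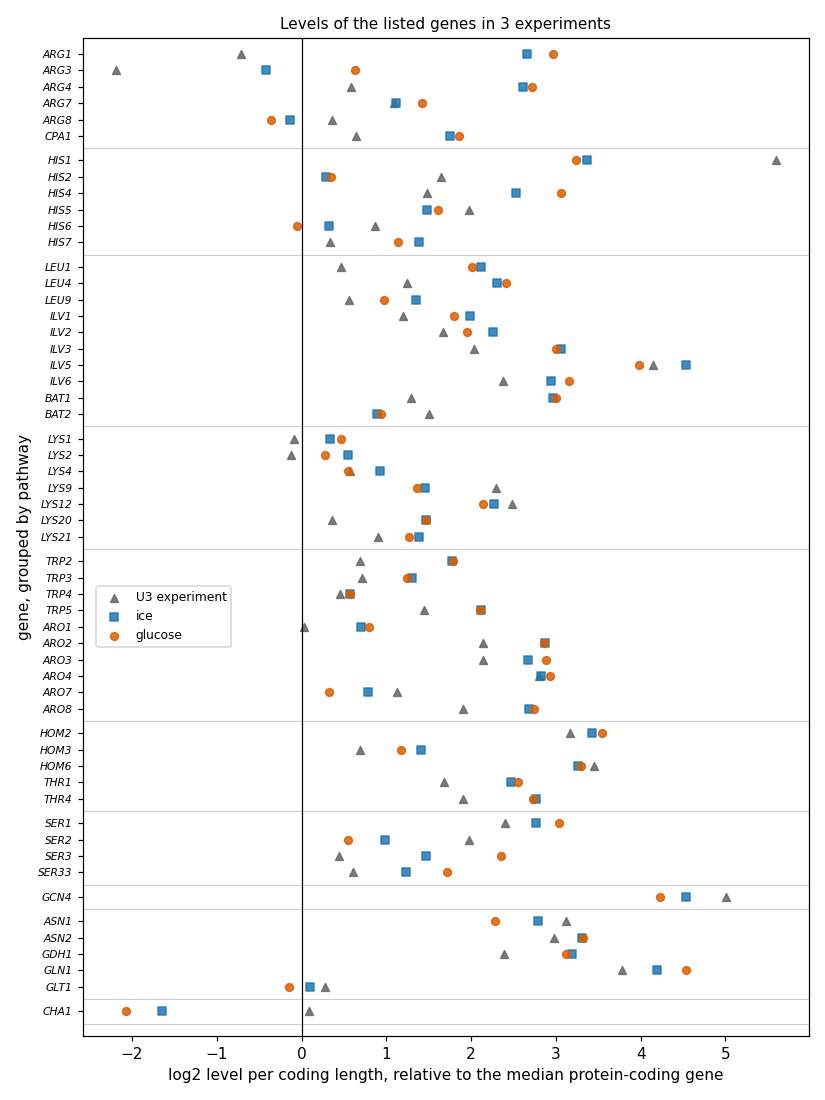
Relative level (log2 of level per coding length minus that of the median protein-coding gene) of each listed gene in the U3 experiment (triangles), on ice (squares) and in glucose (circles), grouped by pathway; each symbol is the authors' mean over 6 libraries. GLN1, GCN4 and ILV5 lie at or above 3.78 in each experiment, HIS1 reaches 5.59 in the U3 experiment, and CHA1 is lowest on ice and in glucose.

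The enzymes of nitrogen entry were also high. GLN1, glutamine synthetase, had a relative level of 4.19 on ice, 3.78 in the U3 experiment and 4.53 in glucose, where it led all 55 genes. GDH1, which makes glutamate from ammonium with NADPH, had 3.19 on ice, 2.39 in the U3 experiment and 3.12 in glucose. GLT1, the large glutamate synthase, was by contrast near the median gene, with 0.10 on ice, 0.28 in the U3 experiment and -0.15 in glucose.

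Among branched-chain enzymes, ILV5, the reductoisomerase of isoleucine and valine synthesis, was highest in glucose at 3.98 and BAT2, the cytosolic aminotransferase, lowest at 0.94. All 10 enzymes of this group were above the median gene in each experiment. In the aspartate branch, HOM2, aspartate semialdehyde dehydrogenase, had 3.54 in glucose and HOM3, the aspartate kinase that opens the branch, had 1.17. The aromatic group ran between 2.93 for ARO4, one of the pair of enzymes that open the shikimate pathway, and 0.32 for ARO7, chorismate mutase. HIS1, the first enzyme of histidine synthesis, had 3.24 in glucose, and HIS6, an isomerase in the middle of the pathway, had -0.05. In arginine synthesis, ARG1, argininosuccinate synthetase, stood at 2.97 in glucose and ARG8, the mitochondrial aminotransferase, at -0.36. Lysine enzymes had the lowest median of the synthesis groups in glucose, with a median percentile of 75.0, between 2.14 for LYS12, homoisocitrate dehydrogenase, and 0.28 for LYS2, aminoadipate reductase. In serine synthesis SER1, the aminotransferase, had 3.03 and SER2, the phosphatase, had 0.55.

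How the levels on ice compared with those in glucose was examined next. The ratio of the 2 means was taken on the log2 scale after adding 1 to each, among 6799 rows with a mean of at least 10 normalised counts in both tables. All 55 genes passed. No listed gene was 1.5-fold or more higher on ice, against 6.74% of all rows, and 4 were 1.5-fold or more lower, against 14.0% of all rows. The median log2 ratio was -0.12 for the listed genes and -0.08 for all rows, with 19 listed genes above 0 and 36 below (65.5%), against 59.3% of all rows below. With the tables scaled to the same sum, 29 listed genes were below 0 (52.7%), against 46.1% of all rows. The share of 4 in 55 is below that of all rows.

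ARG3, ornithine carbamoyltransferase, had 563 normalised counts on ice and 1265 in glucose, a ratio of 0.445. SER3, one of a pair of 3-phosphoglycerate dehydrogenases that open serine synthesis, had 2894 on ice and 5798 in glucose, a ratio of 0.499. Its isozyme SER33 had 2452 on ice and 3729 in glucose, a ratio of 0.658. HIS4, a protein with several activities in histidine synthesis, had 10270 on ice and 16165 in glucose, a ratio of 0.635. ARG3 and SER3 were past the threshold however the tables were scaled to each other. HIS4 and SER33 were past it only as deposited, and not once the tables were scaled to the same sum or the ratios centred on their median. Scaling to the same sum raised the median of all rows by 0.11 on the log2 scale and turned the split of all rows past the threshold to 660 higher and 761 lower, in place of 458 higher and 951 lower.

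**Figure D3:**
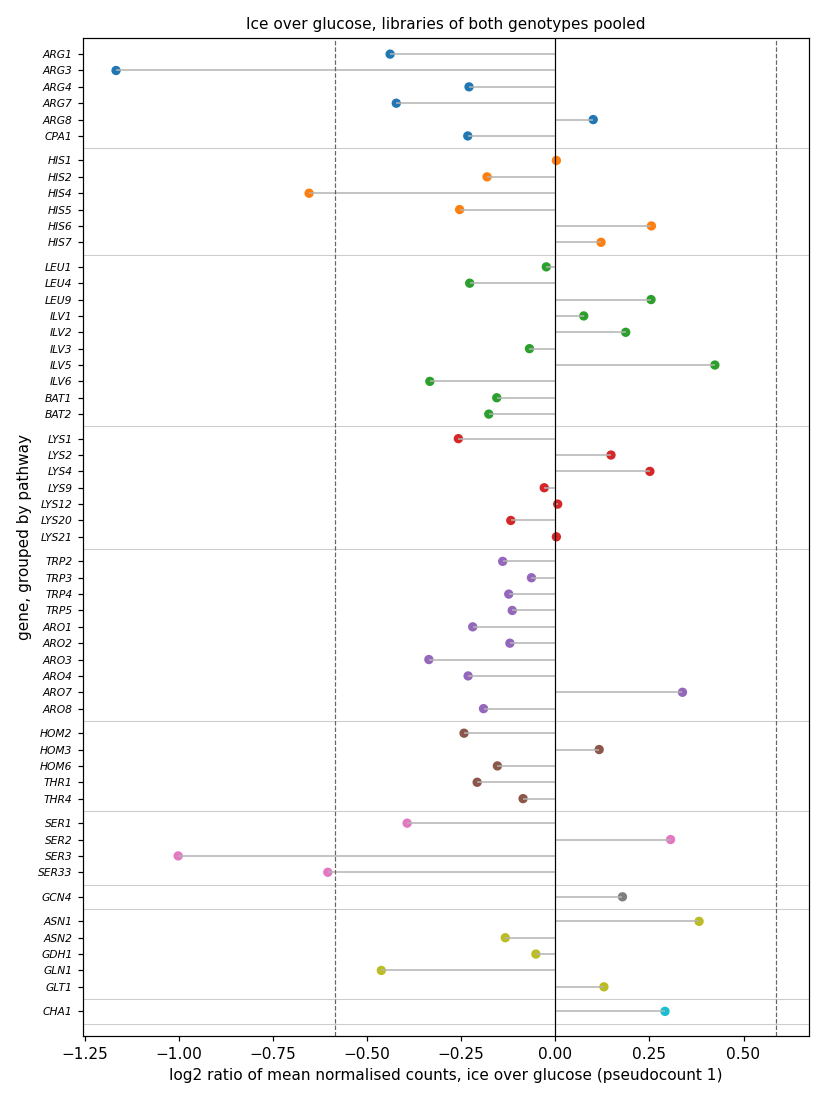
Log2 ratio of the mean normalised count on ice to that in glucose for each listed gene, with libraries of both genotypes pooled; dashed lines mark 1.5-fold either way and no error can be drawn. ARG3 reaches -1.17, SER3 is next, HIS4 and SER33 lie just beyond the lower line, and no gene crosses the upper one.

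By pathway, the median log2 ratio of ice over glucose was lowest for serine synthesis (-0.50, 4 genes) and arginine synthesis (-0.33, 6 genes), and between -0.15 and 0.00 for the other enzyme groups. SER1 had a ratio of 0.761 and SER2 of 1.24. In arginine synthesis 5 of 6 genes had a ratio below 1, as they did with the tables scaled to the same sum. ARG1 had 0.738, ARG7, the mitochondrial acetyltransferase, had 0.746, CPA1, the small subunit of carbamoyl phosphate synthetase, had 0.851, ARG4, argininosuccinate lyase, had 0.853, and only ARG8 was above 1, with 1.07. In the aromatic group 9 of 10 genes were below 1, the lowest being ARO3 with 0.792, and ARO7 had 1.26. Scaled to the same sum, 7 of these 10 were below 1. The lysine genes were split, 4 above and 3 below 1 as deposited and 5 above and 2 below once scaled. These splits stand beside the 59.3% of all rows below 1 as deposited and 46.1% once scaled. The highest ratios of the 55 were those of ILV5 (1.34), ASN1, an asparagine synthetase (1.30), ARO7 (1.26), SER2 (1.24) and CHA1 (1.22). GCN4 had a ratio of 1.13.

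Genes around these pathways were counted in the same way, beside the same 6.74% of all rows higher and 14.0% lower. Of 16 further synthesis genes, 2 were 1.5-fold or more higher on ice and 1 lower. AAT1, the mitochondrial aspartate aminotransferase, had 837 normalised counts on ice and 411 in glucose, and GLY1, threonine aldolase, had 4519 on ice and 3010 in glucose. The lower one was ARG5,6, a gene of arginine synthesis whose product is cut into separate mitochondrial enzymes, with 2757 on ice and 4206 in glucose. Of 13 genes of amino acid breakdown, 6 were lower by this measure and 0 higher, namely PUT1 (ratio 0.432), UGA2 (0.494), GCV1 (0.499), GDH2 (0.568), SRY1 (0.627) and UGA1 (0.651). Scaled to the same sum, UGA1 and SRY1 were no longer past the threshold, which left 4 lower, and ARO10, which decarboxylates the keto acids of aromatic amino acids, was past it as 1 higher. ARG5,6 was not past it either once scaled. PUT1 encodes proline oxidase and GDH2 the glutamate dehydrogenase that releases ammonium. CHA1, which acts on the same side of metabolism, had a ratio above 1 (1.22), as did ARO10 (1.44) and ARO9 (1.19) among the 13. Of 9 further regulators, BAS1 was higher on ice, with 1580 against 1006 in glucose. CHA4, the activator of CHA1, had 514 on ice and 494 in glucose.

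The U3 experiment differs from the glucose arm of the snR4 experiment in strain, plasmid, the shift from galactose to glucose, selection without histidine and the authors' method of counting, and, by one account in the study, in rRNA depletion. The level of the U3 experiment also pools libraries with truncated U3 and libraries with wild type U3, after depletion of the chromosomal U3. The study reports that the mutant strain was inviable after transfer to glucose. These differences cannot be told apart here. Whether the difference of a gene came from the mutant libraries alone was not tested, since the pooled mean does not separate them. Relative levels are therefore set side by side, with a difference of 2-fold as a mark that was chosen after the values had been seen. In the U3 experiment the relative level was at least 2-fold above that in glucose for 4 of the 55 listed genes, against 1053 of the 5494 genes (19.2%). It was at least 2-fold below for 12 of the 55, against 685 of the 5494 (12.5%). The listed genes had the smaller share above and the larger share below. The median difference was -0.54 on the log2 scale for the 55 genes and 0.01 for all.

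Arginine genes were the furthest below. ARG1 had a relative level of -0.71 in the U3 experiment and 2.97 in glucose. ARG3 had -2.19 in the U3 experiment and 0.63 in glucose. ARG4 had 0.59 in the U3 experiment and 2.71 in glucose. CPA1 was also beyond the mark, with 0.64 in the U3 experiment and 1.86 in glucose. ARG7 (1.09 in the U3 experiment and 1.42 in glucose) and ARG8 (0.36 in the U3 experiment and -0.36 in glucose), both in mitochondria, were not. Outside the list, ARG5,6 had -0.65 in the U3 experiment and 1.01 in glucose.

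The histidine genes went both ways. HIS1 had 20110 estimated counts in the U3 experiment, the most of the 55, and a relative level of 5.59, against 3.24 in glucose. HIS2, histidinol phosphatase, had 1.64 in the U3 experiment and 0.34 in glucose. HIS4 was on the other side, with 1.48 in the U3 experiment and 3.06 in glucose. HIS5, the aminotransferase, had 1.97 in the U3 experiment and 1.61 in glucose, and HIS6 had 0.87 in the U3 experiment and -0.05 in glucose. HIS7, which closes the imidazole ring, had 0.34 in the U3 experiment and 1.14 in glucose.

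CHA1 was 2.15 higher on the log2 scale in the U3 experiment than in glucose, and SER2, at 1.98 in the U3 experiment against 0.55 in glucose, was the remaining gene at least 2-fold above. The other genes at least 2-fold below were SER3 (difference -1.91), BAT1 (-1.71), LEU1 (-1.55), LEU4 (-1.16), SER33 (-1.11), LYS20 (-1.10) and TRP2 (-1.10). LEU1 and LEU4 belong to the leucine branch, and TRP2 encodes the anthranilate synthase that opens tryptophan synthesis. No gene of the homoserine and threonine group, or of the asparagine, glutamine and glutamate group, was beyond the mark. Among these, HOM6, homoserine dehydrogenase, had 3.45 in the U3 experiment and 3.30 in glucose.

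**Figure D4:**
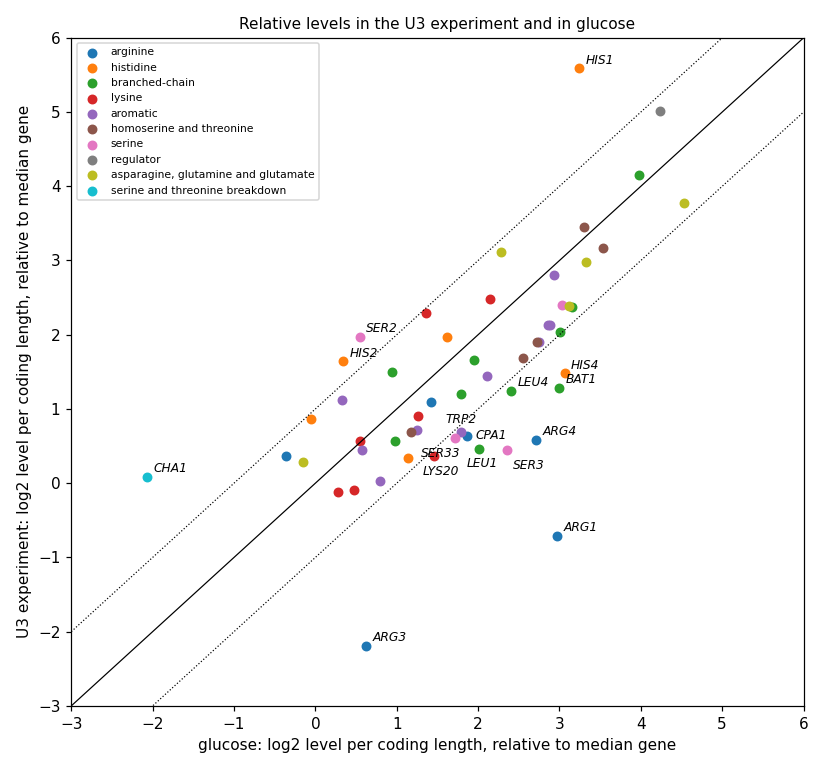
Relative level of each listed gene in the U3 experiment (vertical) against glucose (horizontal), both on the log2 scale per coding length, coloured by pathway; the solid line is equality and the dotted lines 2-fold either way, beyond which genes are named. HIS1, HIS2, SER2 and CHA1 lie above the upper dotted line, and ARG1 and ARG3 are the furthest below the lower one.

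The spread between libraries is known for the U3 experiment alone. The residual SD of a library around its group, calculated from the authors' variance components (3 libraries in each of 2 groups), had a median of 0.26 on the log2 scale over the 55 genes and of 0.25 over the 5494 genes. It was lowest for ARG1 (0.07, no larger than its technical part of 0.08) and highest for ARO4 (0.48). It was 0.37 for HIS1, 0.32 for ARG3 and 0.14 for CHA1. The technical part, from resampling of reads, had a median of 0.04 over the 55 genes and of 0.06 over the 5494 genes, and among the listed genes it was largest for ARG3 (0.16) and CHA1 (0.10). These spreads were measured within the U3 experiment and are not the error of its difference from glucose.

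Pairs of isozymes were compared per length within each table. BAT2 and BAT1 are the cytosolic and mitochondrial aminotransferases of branched-chain amino acids. The log2 ratio of BAT2 to BAT1 was -2.07 on ice, 0.21 in the U3 experiment and -2.05 in glucose. For ASN2 and ASN1, the asparagine synthetases, it was 0.53 on ice, -0.14 in the U3 experiment and 1.04 in glucose. LEU9 was below LEU4, the other isopropylmalate synthase, with a log2 ratio of -0.95 on ice, -0.68 in the U3 experiment and -1.43 in glucose. The log2 ratio of SER33 to SER3 was -0.24 on ice, 0.16 in the U3 experiment and -0.64 in glucose. For ARO4 and ARO3 the log2 ratio was 0.15 on ice, 0.67 in the U3 experiment and 0.04 in glucose.

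LYS21 and LYS20, the homocitrate synthases, had log2 ratios of -0.08 on ice, 0.54 in the U3 experiment and -0.20 in glucose. Their coding sequences are 88.2% identical and share an unbroken run of 278 bases, so reads from that run fit both genes. Their values are therefore uncertain in each experiment. The place of LYS20 beyond the 2-fold mark is uncertain too, since the methods of counting differed. The longest shared run was 83 bases for ASN2 and ASN1 (81.0% identity), 56 for SER33 and SER3 (82.6%) and 41 for LEU9 and LEU4 (76.9%). It was 17 bases for BAT2 and BAT1 and for ARO4 and ARO3, at 68.7% and 63.7% identity. Any read that lies wholly within a run of 41 to 83 bases also fits both genes of its pair. The ratios of those pairs, and the places of SER3, SER33 and LEU4 beyond the 2-fold mark, carry that limit too.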

How the data were processed

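The libraries were prepared with a strand-marking kit. Poly(A) selection is what the labels give, whereas the study's text also names rRNA depletion for U3. Per the labels, the authors used Trimmomatic, kallisto, sleuth, STAR, HTSeq and DESeq2 with R64. Whether counting used strand is not given in the sources used here, so genes with an overlapping or antisense neighbour are uncertain.

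From the ice and glucose tables the mean normalised count was used, a signal that the authors deposited as the mean of 6 libraries. From the U3 table the deposited mean natural log of estimated counts was used, together with the authors' technical and residual variance components, which are score values. The log base was checked on the values, since technical variance times level had a median of 1.22, near that of counting error in natural log units. The tables otherwise hold the authors' own comparisons of genotypes (fold changes, errors, test statistics, p-values and q-values) and a total variance, and these were not used here. No column held values per library.

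Genes were matched by locus name to the R64 RefSeq annotation for coding length, position and promoter sequence. Ratios used a pseudocount of 1, a minimum of 10 normalised counts in both tables and a threshold of 1.5-fold. Named genes were GCN4, CHA1, the highest and lowest of each pathway in glucose, genes past 1.5-fold and isozyme pairs. Other genes, such as those past 2-fold between U3 and glucose, were named after their values were seen. The listed genes and the other lists were chosen with earlier results of these data known. The calculation was tested on simulated data. No test was made: those between genotypes are the authors' own, and ice and glucose can be compared only as pooled means. Alternatives were scaling, centring, pseudocounts, filters, thresholds, undivided levels and other motif settings. Python 3.11.15, numpy 2.4.6, pandas 2.3.3, Biopython 1.88 and matplotlib 3.10.9 were used.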

Additional observations from a re-analysis of the deposited data

How the results depend on the processing

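The tables hold no value per library, so no replicate could be left out and no error or interval can be attached to the ice and glucose values, whose depth per library is unknown. No paired analysis was possible because the tables carry no replicate numbers. With the tables scaled to the same sum, 2 listed genes were 1.5-fold or more lower on ice in place of 4 and the median log2 ratio was -0.00355. With ratios centred on the median of all rows the count was again 2, and the genes were ARG3 and SER3 under both. A threshold of 0.32 on the log2 scale, in place of 0.58, gave 3 genes higher and 10 lower, against 15.2% and 27.4% of all rows, and one of 2-fold gave 2 lower, against 6.06% of all rows. The splits around a ratio of 1 and the other lists were scaled in the same way after seeing the data. Pseudocounts of 0 and 10, no filter and a minimum of 100 left the counts at 0 higher and 4 lower. Undivided by length, the median percentile in glucose was 89.8 in place of 84.3. The motif was found in 38 genes upstream of the start codon alone, in 28 with the longer form, and in 29 within 250 bases, a window chosen after seeing the data. A median was taken as moved beyond 0.1 on the log2 scale and a percentile beyond 5 points, since no spread between replicates exists.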

Other observations

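Members with and without the Gcn4 core motif can be set side by side as values. The 38 genes with the motif had a median log2 ratio of ice over glucose of -0.14, and the 17 without it -0.11. The difference of relative levels between the U3 experiment and glucose had a median of -0.61 in the 38 genes and of 0.02 in the 17. However, the 17 include GCN4 (0.78) and CHA1 (2.15), which are not synthesis enzymes. Both lie above the median of the 17, and without them the middle gene is ILV2, at -0.29. The 38 include all 6 arginine genes, whose median was -1.67. The groups therefore differ in more than the motif. The grouping was made after the levels were known and carries no test. Of the 38 genes, 11 held the motif more than once.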
